A study of Mus musculus with 11 samples.

Results

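Cytosolic ribosomal protein genes code for the protein parts of the ribosome that translates nuclear-encoded messenger RNA. They were taken here as the genes whose platform symbol begins with Rpl or Rps and a digit, together with Rplp0, Rplp1, Rplp2 and Rpsa, without the ribosomal S6 kinases and the Rps19-binding protein. The rule found 68 genes on 186 spots, and all 68 were among the 12097 features tested. By symbol alone, 41 of these genes were assigned to the large subunit, 24 to the small subunit and 3 to the stalk. On 2 or more spots there were 45. The mouse gene table of RefSeq holds 90 protein-coding genes that meet the rule. Rpl36, Rps14 and Rps2 were only on spots that list several genes and were not analysed as members, and Rpl3l and Rpl22l1 were not analysed here.

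The arrays held RNA from both ventricles and the septum of 12 male TG1306/1R mice of the C57/BL6 strain, about 60 weeks old, in a line whose transgene overexpresses angiotensinogen in cardiac muscle. Dil denotes 4 heterozygous carriers with dilated hearts (cardiac weight index 7.8 to 9.2 mg/g), Hyp denotes 4 heterozygous carriers with concentric hypertrophy (5.3 to 5.8 mg/g), and WT denotes 4 littermates that lack the transgene (4.2 to 4.9 mg/g). The labels give Hyp3 an index of 5.3 mg/g on 1 array and 5.6 mg/g on another. No mouse received a treatment. Carrier hearts were assigned to Dil or Hyp partly by chamber shape, weight index and hypertrophic markers, so these features define the groups. Mice carry the numbers 1 to 4 within a group, and each of the 11 arrays compared 2 mice with the same number, called a set below. There were 3 arrays of Dil and WT, 4 of Hyp and WT and 4 of Dil and Hyp, and set 2 had none of Dil and WT. An array gives a ratio of 2 mice and no level for either one, so every value below is a log2 ratio or a difference on that scale.

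In the cytosol, each ribosome joins a large subunit, which forms peptide bonds, to a small subunit, which reads the messenger RNA. Growth of the heart muscle cell needs more protein synthesis, and in mammals the messenger RNAs of ribosomal proteins are controlled together, largely at translation. This control acts through a run of pyrimidines at the 5′ end of the transcript, the terminal oligopyrimidine (TOP) tract, and through the mTOR pathway. Because the arrays measured RNA abundance, translation of these transcripts was outside the measurement.

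The start sites of 6 of the genes described below are shown because the tract lies there. Each line gives the 10 bases before and the 20 bases from the annotated transcription start, 5′ to 3′ on the coding strand, from RefSeq's annotation of GRCm38.p6. Capitals mark a tract, defined as a C at the start followed by at least 4 further bases that are each C or T.
Rps6, chr4:86857348-86857377, minus strand: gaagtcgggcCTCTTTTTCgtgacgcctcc
Rps27, chr3:90213629-90213658, minus strand: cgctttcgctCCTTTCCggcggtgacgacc
Rplp2, chr7:141447641-141447670, plus strand: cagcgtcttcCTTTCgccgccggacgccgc
Rpl38, chr11:114668570-114668599, plus strand: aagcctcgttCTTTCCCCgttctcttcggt
Rpl4, chr9:64173377-64173406, plus strand: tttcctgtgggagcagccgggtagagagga
Rpl10, chrX:74270806-74270835, plus strand: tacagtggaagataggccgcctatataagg

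The first 4 of these starts carry a tract of 5 to 9 bases, and the starts annotated for Rpl4 and Rpl10 do not. Start sites were found for 57 of the 68 genes, and 13 of the 57 had a tract at an annotated start. Counted over starts, 19.1% of those of ribosomal protein genes held one, against 2.51% of all 32851 starts in the table, which include them. The search was limited to the coding strand at the exact annotated base. The absence of a match says only that these letters do not begin at that base. 

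Agt, the angiotensinogen gene, was checked first because the line overexpresses it. Its log2 difference was 2.15 in Dil minus WT and 2.09 in Hyp minus WT, and that of Nppb, the B-type natriuretic peptide gene, was 2.53 and 1.02. In limma both passed in Dil minus WT (adjusted p = 0.031 and 0.0087) and neither passed in Hyp minus WT (0.87 and 0.90). The direction of the deposited ratios is not stated, so they were read as Cy5 over Cy3 on this basis. If they run the other way, all signs given here are inverted. The values of Hyp1 over WT1 were displaced within their column and were realigned, which left 64 of the 68 genes with a value on that array. Tissue markers could not be checked as levels, because the arrays hold ratios. The spread of all features was wider on the arrays that compared Dil with another group in sets 3 and 4 (0.22 to 0.33, scaled median absolute deviation) than on the other 7 arrays (0.11 to 0.17).

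Dilated hearts were compared with hearts without the transgene first. As a group the ribosomal protein genes stayed close to 0, with a median log2 difference of -0.013 in Dil minus WT against 0.0029 for all features. It was 0.015 without set 2 (40 of 68 genes above 0) and -0.095 without set 3 (16 of 68 above 0). In limma, 0 of the 68 genes passed at an adjusted p below 0.05, against 2.15% of all features, which is 260 features. At an unadjusted p below 0.05 there were 2 of 68 (Rpl3 and Rpl10), or 2.94%, against 16.2% of all features. In 51 of the 68 genes (75%) the fitted difference lay within 0.1 of 0, compared with 55.0% of all features. The 95% interval lay inside -0.5 to 0.5, a factor of 1.41 either way, for 60 of the 68 genes and for 82.9% of all features. The precision was lower than for a typical feature, with a median standard error of 0.114 for the 68 genes and 0.088 for all features.

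**Figure D1:**
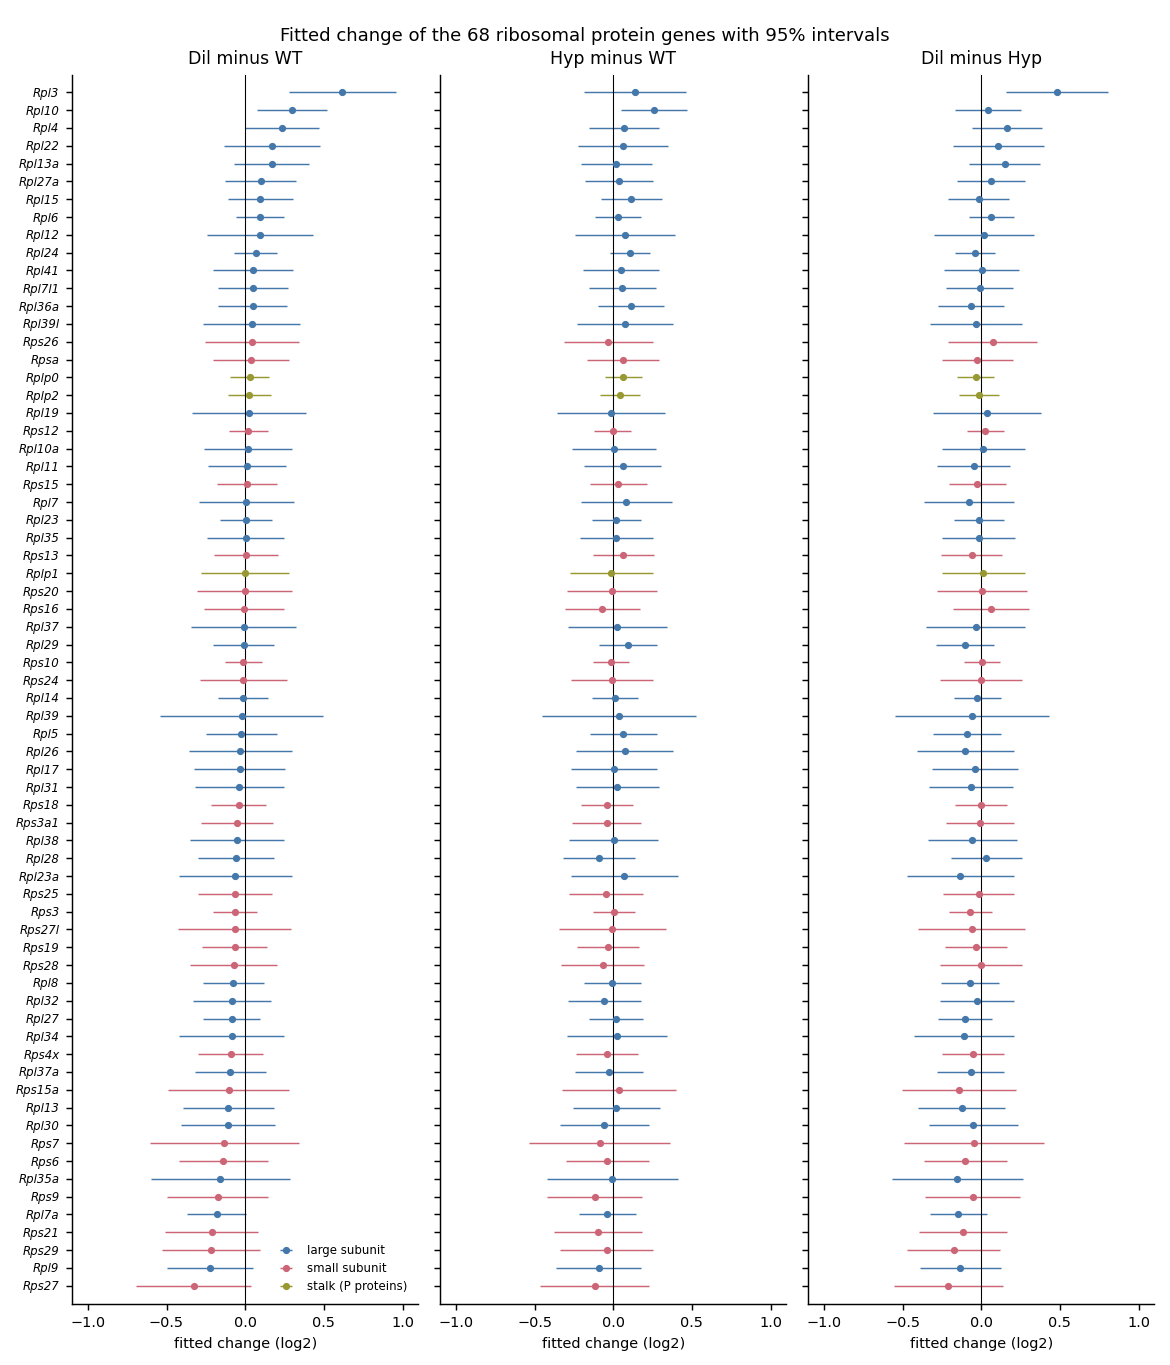
Fitted log2 difference (x axis) of each of the 68 ribosomal protein genes (rows, ordered by Dil minus WT) in the 3 comparisons, with bars for 95% intervals and colours for the large subunit, small subunit and stalk. Rpl3 is at 0.62 in Dil minus WT and 0.48 in Dil minus Hyp, and most other genes lie within 0.1 of 0.

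Rpl3, a large subunit protein close to the site of peptide bond formation, had the highest value of the 68 genes in Dil minus WT, 0.62 ± 0.16 (SE, 4 mice per group, 1.53-fold, 95% interval 0.28 to 0.96). Its adjusted p was 0.071, so it did not pass. The arrays gave 0.13 in Dil1 over WT1, 0.90 in Dil3 over WT3 and 0.92 in Dil4 over WT4, so it was above 0 on 3 of 3 direct arrays and larger in sets 3 and 4. In Dil over Hyp the values were 0.23, -0.09, 0.62 and 1.09 in sets 1 to 4. The fitted Dil minus Hyp difference was 0.48 ± 0.15 (adjusted p = 0.28, above 0 on 3 of 4 direct arrays) and 0.28 without set 4, and sets 3 and 4 again stood above the other sets. In Hyp over WT the arrays gave 0.06, 0.38, 0.12 and -0.06, and the fitted difference of 0.14 ± 0.15 did not pass (adjusted p = 0.999). The Dil minus WT difference was 0.53 without set 3 and 0.49 without set 4, with adjusted p of 0.42 and 0.32. It was lowest, at 0.46, with all arrays scaled to a common spread (adjusted p = 0.086).

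In whole ventricles, fewer cells of a type and less RNA per cell cannot be told apart. As a list, the fibroblast markers had higher values in the same sets as Rpl3. The 8 measured markers, of 10 listed, had medians of -0.10, -0.05, 0.44 and 0.36 in Dil minus WT over sets 1 to 4, with 7 of 8 above 0 in sets 3 and 4. None of the 8 passed over all features in any comparison. Col3a1, a fibrillar collagen gene, had set values of 0.05, 0.12, 1.08 and 0.98, and Pdgfra, another of the 8, had -0.16, -0.20, -0.08 and -0.34. The 2 measured macrophage and leukocyte markers, of 8 listed, had medians of -0.05, -0.17, 0.19 and 0.54 in the same sets. Other lists differed, with medians of 0.15, 0.12, -0.11 and -0.24 for 5 endothelial markers. For 3 smooth muscle and pericyte markers they were -0.05, -0.11, -0.21 and 0.007, and for 4 adipocyte markers -0.20, 0.13, 0.11 and 0.02. A single lymphocyte marker had -0.08, 0.05, 0.19 and 0.42, and a single erythrocyte marker 0.81, 0.21, 0.15 and 0.15. The part of these cell types in the Rpl3 values was not tested. For cardiomyocytes 3 of 13 listed markers were measured (Ryr2, Atp2a2 and Ttn), and they had medians of -0.09, -0.10, -0.03 and -0.54 in the same sets.

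Rpl3 was on 10 spots. Fitted spot by spot, all 10 lay above 0 in Dil minus WT (0.30 to 0.82) and in Dil minus Hyp (0.27 to 0.63). In Dil minus WT 1 of the 10 passed (adjusted p = 0.049 over all spots), where 302 of all 16471 spots did. On Dil4 over Hyp4, where Dil4 was labelled with Cy5, the 10 spots agreed, with values of 0.86 to 1.39. On Dil4 over WT4, where Dil4 was labelled with Cy3, 7 spots lay between 0.98 and 1.44 and the other 3 between -0.03 and 0.40. The same 3 spots, singled out after their values were seen, lay between -0.02 and 0.33 on Dil3 over Hyp3, again with Dil in Cy3, while the other 7 lay between 0.52 and 1.03. On Dil3 over WT3, with Dil3 in Cy5, the 3 spots (0.80 to 1.04) lay within the range of the other 7 (0.63 to 1.20). The sequences of the clones were not analysed here. Averaged over 10 spots, the arrays of sets 3 and 4 closed to within 0.16 and 0.11. That is, the Hyp over WT and Dil over Hyp values summed to the Dil over WT value up to these amounts. In set 4 this average joined spots that missed in opposite directions. For the 3 spots, Hyp4 over WT4 was -0.01 to 0.15 and Dil4 over Hyp4 was 1.12 to 1.22, against -0.03 to 0.40 on Dil4 over WT4.

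**Figure D2:**
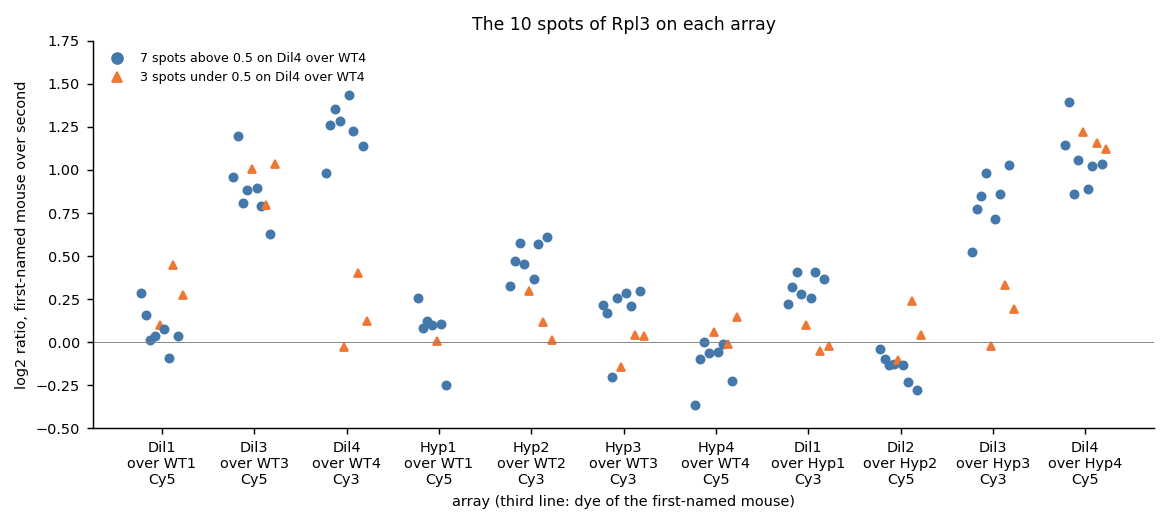
Log2 ratio (y axis) of the 10 Rpl3 spots on each of the 11 arrays (x axis, with the dye of the first-named mouse). Triangles mark the 3 spots that lay under 0.5 on Dil4 over WT4; on the arrays with Dil4 or Dil3 in Cy5 they lie among the other 7, and with Dil4 or Dil3 in Cy3 they lie below them.

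Rpl10, a large subunit protein that joins late in assembly, had similar differences in both carrier groups. Its fitted value was 0.30 ± 0.10 in Dil minus WT (adjusted p = 0.16) and 0.26 ± 0.10 in Hyp minus WT (adjusted p = 0.999), and neither passed. The arrays gave 0.15, 0.42 and 0.14 in Dil over WT in sets 1, 3 and 4. In Hyp over WT they gave 0.42, 0.65, -0.003 and 0.09 in sets 1 to 4, so the Hyp values came mainly from sets 1 and 2. Its 7 spots lay between 0.17 and 0.50 in Dil minus WT and between 0.14 and 0.35 in Hyp minus WT, all above 0. In Dil minus WT 1 of them passed (adjusted p = 0.046), where 302 of all 16471 spots did. Dil minus Hyp was 0.04 ± 0.10, with a 95% interval of -0.17 to 0.25. Rpl10 was above 0 in all 4 sets in both comparisons with WT. Without set 2 its Hyp minus WT value was 0.12.

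Rpl4, which lines the exit tunnel of the large subunit, had 0.23 ± 0.11 in Dil minus WT (adjusted p = 0.31). The arrays gave -0.16, 0.40 and 0.36 in Dil over WT in sets 1, 3 and 4, so sets 3 and 4 lay above set 1, as they did for Rpl3. All 8 of its spots lay above 0 in Dil minus WT, between 0.07 and 0.49, and in Dil minus Hyp, between 0.07 and 0.32. The next values in Dil minus WT were 0.17 for Rpl22, an RNA-binding large subunit protein, and 0.17 for Rpl13a, which in human cells also represses translation of selected messenger RNAs after interferon-gamma. Each of these was measured on 1 spot and had an adjusted p above 0.5.

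At the other end of Dil minus WT stood Rps27, a small subunit protein with a zinc finger, at -0.33 ± 0.17 (1 spot, adjusted p = 0.37). The arrays gave -0.01, 0.15 and -0.64 in Dil over WT in sets 1, 3 and 4, so among these only Dil4 over WT4 was low. In set 4 Hyp over WT was also low, at -0.65, while Dil over Hyp was 0.12. In set 2, Dil over Hyp was -0.85. Without set 4 the Dil minus WT value was -0.21. The next lowest were Rpl9 (-0.22), Rps29 (-0.22), Rps21 (-0.21) and Rpl7a (-0.18), and Rps27l, the close relative of Rps27, was at -0.07. Of the 68 genes, 3 were above 0 in all 4 sets (Rpl3, Rpl10 and Rpl24) and 4 were below (Rps27, Rpl9, Rpl7a and Rpl30), against 11.1% and 11.9% of all features.

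**Figure D3:**
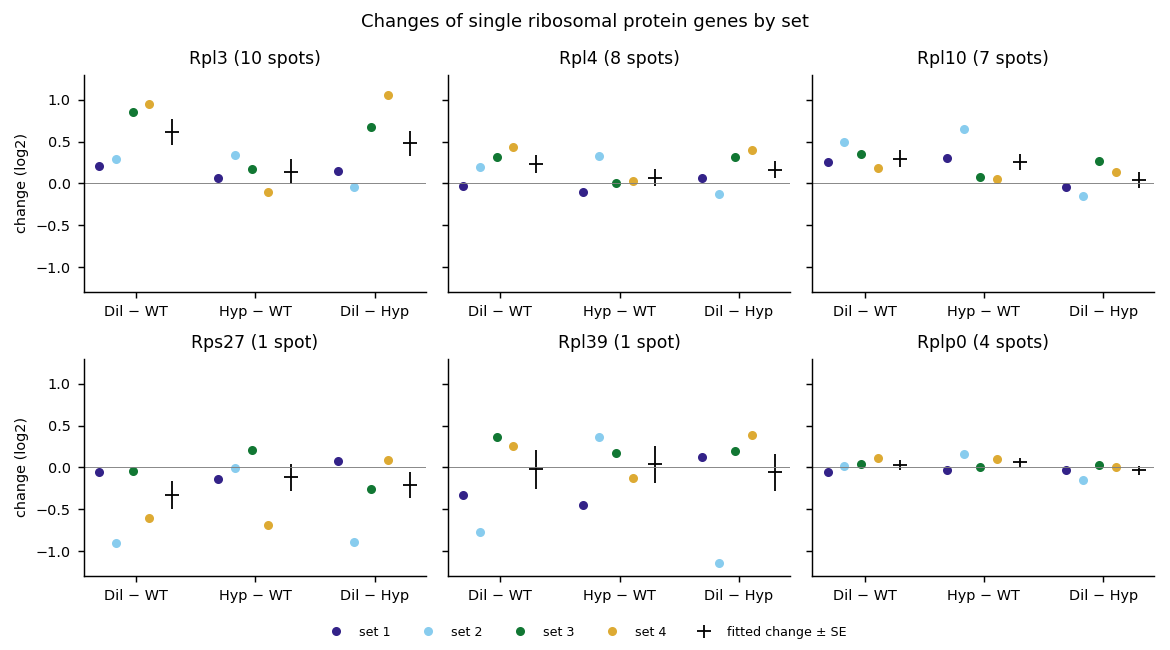
Log2 difference (y axis) of 6 ribosomal protein genes in the 4 sets (coloured points) and in the fit over all arrays (black, ± SE) for the 3 comparisons (x axis). Rpl3 in Dil minus WT is at 0.21 and 0.29 in sets 1 and 2 and at 0.85 and 0.95 in sets 3 and 4, Rpl39 spans 1.54 over the sets in Dil minus Hyp, and all set values of Rplp0 lie between -0.15 and 0.17.

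Hypertrophic hearts were compared with hearts without the transgene next. The median of the 68 genes in Hyp minus WT was 0.014, against 0.00075 for all features, and 0 of 68 passed in limma, where 0.0% of all features did. Rpl10 was the single gene at an unadjusted p below 0.05 (1.47% of the 68 genes, against 4.41% of all features). In 61 of the 68 genes (89.7%) the difference lay within 0.1 of 0, compared with 72.8% of all features. The 95% interval lay inside -0.5 to 0.5 for 66 of the 68 genes and for 91.0% of all features. After Rpl10 and Rpl3 the highest values were 0.11 for Rpl15, 0.11 for Rpl36a and 0.11 for Rpl24. The lowest were -0.12 for Rps9, -0.12 for Rps27, -0.10 for Rps21 and -0.09 for both Rpl9 and Rpl28. The sign of the median depended on the sets, and it was 0.079 without set 1 (51 of 68 genes above 0) and -0.077 without set 2 (8 of 68 above 0).

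Dilated hearts were then compared with hypertrophic hearts, both of carriers. The median in Dil minus Hyp was -0.034 against -0.0037 for all features, and 49 of the 68 genes lay below 0. In limma 0 of 68 passed, against 0.165% of all features, and Rpl3 was the only one at an unadjusted p below 0.05 (1.47% of the 68 genes, against 9.64% of all features). In 50 of the 68 genes the difference lay within 0.1 of 0 (73.5%, against 67.3% of all features). After Rpl3 and Rpl4 the highest values were 0.15 for Rpl13a, 0.11 for Rpl22 and 0.07 for Rps26, and the lowest were -0.21 for Rps27, -0.18 for Rps29, -0.15 for both Rpl35a and Rpl7a and -0.14 for Rps15a. The sign of the group median rested on set 2. Without that set the median was 0.085, with 58 of 68 genes above 0, and 5 of the 68 had an unadjusted p below 0.05 (7.35%, against 9.81% of all features in that fit).

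On 2 of the arrays nearly all ribosomal protein genes lay on the same side of 0. On Dil2 over Hyp2 the median of the 68 genes was -0.41, and 66 of 68 lay below 0, compared with 53.7% of all features. The exceptions were Rpl13a (0.21) and Rplp2 (0.03), and the lowest were Rpl39 (-1.02), Rps7 (-0.87) and Rps27 (-0.85). On Dil4 over Hyp4 the direction was opposite, with a median of 0.28 and 66 of 68 genes above 0, compared with 48.2% of all features. The exceptions there were Rpl24 (-0.02) and Rpl29 (-0.01), and the highest were Rpl3 (1.09), Rpl13a (0.97) and Rpl39 (0.87). On Dil1 over Hyp1 and Dil3 over Hyp3 the medians were 0.07 and -0.03. The 4 arrays of the same comparison thus lay on both sides of 0, and Dil minus Hyp was above 0 in all 4 sets, or below 0 in all 4, for 0 of the 68 genes, against 7.81% and 8.12% of all features.

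**Figure D4:**
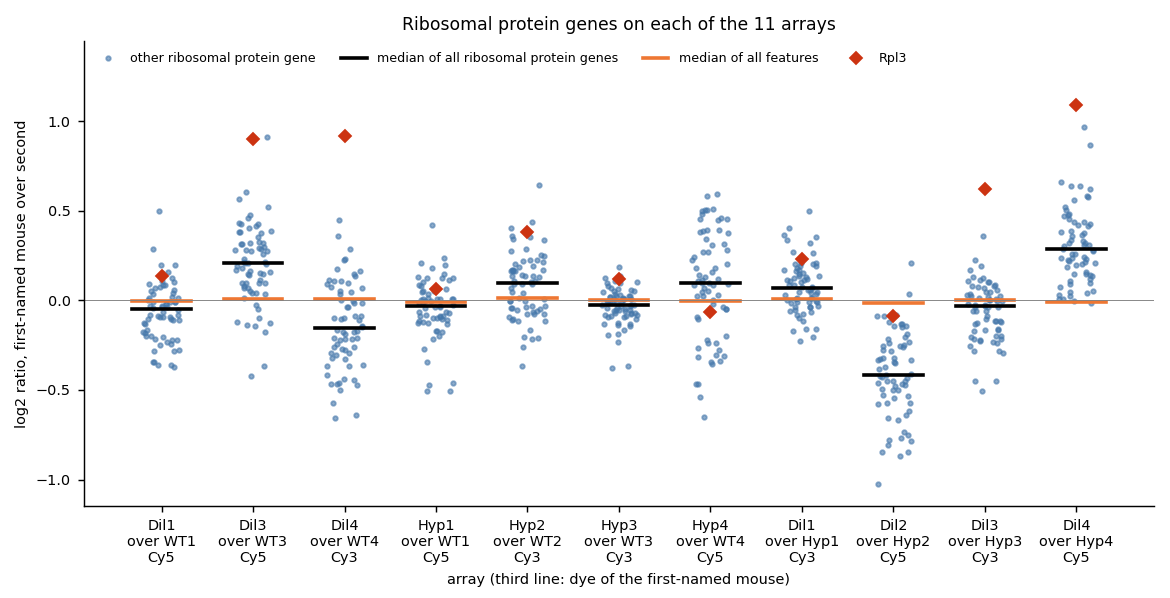
Log2 ratio (y axis) of each ribosomal protein gene (points) on the 11 arrays (x axis), with their median in black, the median of all features in orange and Rpl3 as a red diamond. The genes lie almost wholly below 0 on Dil2 over Hyp2 (median -0.41) and almost wholly above 0 on Dil4 over Hyp4 (median 0.28), while the median of all features stays near 0.

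The arrays of Dil and WT also lay on both sides of 0. The median of the 68 genes was -0.05 on Dil1 over WT1, 0.21 on Dil3 over WT3 (58 of 68 above 0) and -0.15 on Dil4 over WT4 (47 of 68 below 0). In Hyp over WT the medians were -0.03, 0.10, -0.03 and 0.10 in sets 1 to 4. The other genes with a known TOP tract, 15 of which were measured and which include translation factors, had medians on the arrays of Dil and Hyp that were of smaller size in sets 1, 2 and 4 (0.01, -0.17, 0.17 and 0.24 in sets 1 to 4). The mitochondrion has a separate ribosome. The 47 genes with a mitochondrial ribosomal protein symbol (Mrpl or Mrps and a digit) had medians of 0.05, -0.15, -0.18 and -0.18 on those arrays. Their value in set 4 was opposite in sign to that of the cytosolic genes.

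The 3 arrays of a set can be checked against each other, because Hyp over WT plus Dil over Hyp should equal Dil over WT apart from dye effects and noise. For the 68 genes the median excess of the sum was 0.09 in set 1, -0.25 in set 3 and 0.50 in set 4, against -0.009, 0.015 and -0.032 for all features. In set 4 the excess was above 0 in 58 of 68 genes. Rpl7 had 0.99 there, while Rpl3 had 0.11 as an average over spots that missed in opposite directions. The excess in set 4 carries 3 dye effects in the positive direction and that in set 3 carries 3 in the negative direction, which corresponds to 0.17 and 0.08 per dye effect. Set 1 carries a single one, at -0.09. In the fit, the dye term of the 68 genes had a median of 0.032 and reached 0.48 in Rpl13a, against a median of -0.0096 for all features. The excess of set 4 was larger than the medians of the 68 genes on its arrays (0.28 or less in size), and the part of labelling in it was not tested.

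When the arrays of a set were combined after removing each gene's dye term, the medians of the 68 genes in Dil minus WT were -0.07, -0.31, 0.11 and 0.04 in sets 1 to 4. In Hyp minus WT they were -0.13, 0.14, 0.07 and -0.05, and in Dil minus Hyp 0.06, -0.44, 0.04 and 0.13. All 68 genes lay below 0 in set 2 of Dil minus Hyp. The standard deviation over the 4 set medians was 0.19, 0.12 and 0.26 in these comparisons, several times the medians of the fit. Set 2 of Dil minus WT rests on Dil2 over Hyp2 and Hyp2 over WT2 and has no direct array to check it. For all features the set medians stayed between -0.010 and 0.007.

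**Figure D5:**
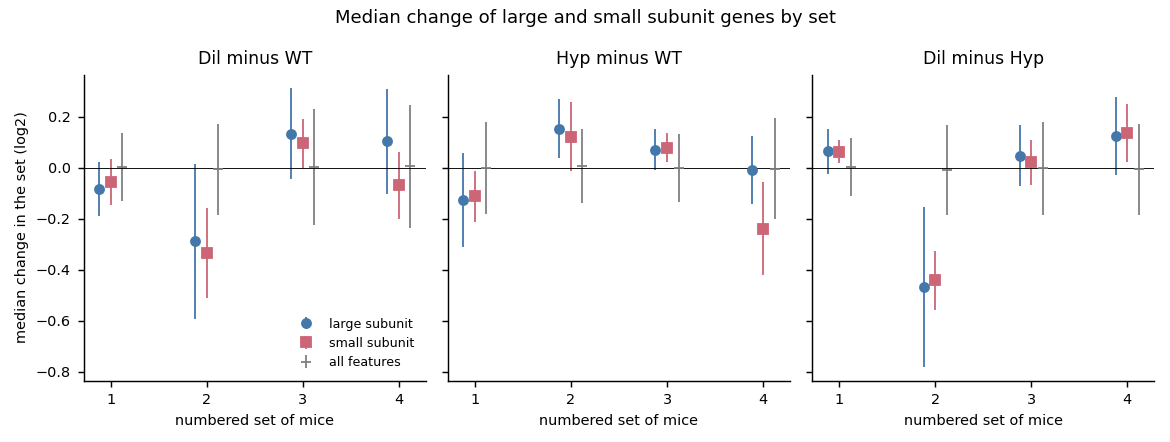
Median log2 difference (y axis) of the 41 large subunit genes, the 24 small subunit genes and all features in each numbered set (x axis) for the 3 comparisons. Bars are scaled median absolute deviations over genes; both subunits lie below -0.4 in set 2 of Dil minus Hyp, and in set 4 of Hyp minus WT the small subunit lies at -0.24 and the large subunit at -0.009.

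Large and small subunit genes had like medians in most sets. In Dil minus Hyp the large subunit had set medians of 0.06, -0.47, 0.05 and 0.13, and the small subunit had 0.06, -0.44, 0.02 and 0.14. The medians differed most in set 4 of Hyp minus WT (-0.009 and -0.24), where 19 of 41 large and 3 of 24 small subunit genes lay above 0. In set 4 of Dil minus WT they were 0.10 and -0.07, with 31 of 41 and 6 of 24 genes above 0. Over the fit, the small subunit genes had a median of -0.064 in Dil minus WT (5 of 24 above 0), the large subunit genes -0.009 (20 of 41 above 0). In Hyp minus WT the medians were -0.035 for the small subunit (5 of 24 above 0) and 0.027 for the large subunit (32 of 41 above 0).

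The genes differed in how much their values varied between sets. Over the 4 sets, the range in Dil minus Hyp had a median of 0.64 for the 68 genes, against 0.33 for all features. Rpl39, a short protein of the exit tunnel, had the widest range in Dil minus Hyp (1.54) and in Dil minus WT (1.14), with array values of -1.02 on Dil2 over Hyp2 and 0.87 on Dil4 over Hyp4. In Dil minus Hyp, Rpl35a ranged over 1.38 and Rps7 over 1.22, and in Dil minus WT Rps29 ranged over 0.998. Rpl12, which lies at the base of the stalk, ranged over 1.04 in Dil minus WT, and the widest ranges in Hyp minus WT were 0.94 for Rps7, 0.91 for Rps15a and 0.89 for Rps27. Rps10, Rplp0, Rplp2 and Rpl24 were steady, with ranges of 0.18, 0.18, 0.24 and 0.21 in Dil minus Hyp.

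The stalk proteins recruit translation factors to the large subunit, and Rplp0 is widely used as a reference gene for RNA measurements. Rplp0 had fitted differences of 0.03 ± 0.06 in Dil minus WT, 0.06 ± 0.05 in Hyp minus WT and -0.04 ± 0.05 in Dil minus Hyp, and its 95% intervals lay within -0.15 and 0.18. Rplp2 had 0.03, 0.04 and -0.02, and Rplp1, which varied more between arrays, had 0.0009, -0.01 and 0.01. Rps6, the substrate of the S6 kinases, had -0.14 ± 0.13, -0.04 ± 0.12 and -0.10 ± 0.12, with 4 spots below 0 in Dil minus WT. Rpsa, also known as the laminin receptor, had 0.04, 0.06 and -0.02.

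Rpl5 and Rpl11, which bind Mdm2 when ribosome assembly is disturbed, had -0.03 and 0.01 in Dil minus WT and -0.09 and -0.05 in Dil minus Hyp. Rps19, mutated in Diamond-Blackfan anaemia in humans, had -0.07 and -0.03 in these comparisons, and Rps3, which also takes part in DNA repair, had -0.06 and -0.07. Rpl38, needed in the mouse for translation of certain Hox messenger RNAs, had -0.05 and -0.06, and the X-linked Rps4x had -0.09 and -0.05. Rpl7, on 9 spots, had 0.008 in Dil minus WT and -0.08 in Dil minus Hyp, with 9 spots between -0.06 and 0.07 in the first of these, and its relative Rpl7l1 had 0.05 and -0.009. Apart from Rps6, the stalk and other genes of this and the preceding paragraph lay within 0.1 of 0 in the comparisons given.

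Genes on 4 or more spots show how well spots of a gene agree. There were 15 such genes. In Dil minus WT all spots of Rpl3, Rpl10 and Rpl4 lay above 0 and all 4 of Rps6 lay below 0 (-0.25 to -0.07). The 5 spots of Rps15 lay between -0.03 and 0.03, the 4 of Rplp0 between -0.01 and 0.07 and the 5 of Rpl41 between -0.08 and 0.12. The 5 spots of Rpl17 lay between -0.16 and 0.01, the 4 of Rpl31 between -0.09 and 0.0001, the 4 of Rps10 between -0.16 and 0.07 and the 4 of Rps3a1 between -0.18 and 0.01. Spots of Rpl5 (-0.23 to 0.09), Rpl15 (-0.02 to 0.27) and Rpsa (-0.27 to 0.30) were spread more widely. Over the 15 genes, 2 spots passed in Dil minus WT when every spot was fitted alone, 1 of Rpl3 and 1 of Rpl10.

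Genes that work with the ribosomal proteins were compared as counts. Of 15 measured genes with a TOP tract whose symbols do not meet the rule, 0 passed in any comparison in limma. In Dil minus WT 1 had an unadjusted p below 0.05, as did 16.2% of all features. That gene was Eef1a1, an elongation factor on 10 spots, at 0.59 ± 0.17 (adjusted p = 0.10), with set values of 0.14, 0.16, 0.84 and 0.99, so that Dil3 and Dil4 were high as for Rpl3. Eef2 had 0.28 and Tpt1 -0.17, and the list's median was 0.10 in Dil minus WT. The list includes Fau, which codes for a small subunit protein under another symbol, so the list is not wholly outside the ribosome. In Dil minus Hyp the set values of Fau were 0.11, -0.46, 0.04 and 0.16.

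Of 42 measured genes of ribosome assembly and RNA polymerase I, 2 passed in Dil minus WT and both rose, against 2.15% of all features. They were Gnl3, a nucleolar GTPase (0.28 ± 0.06, adjusted p = 0.049, all 4 sets between 0.23 and 0.32), and Tsr1, a small subunit assembly factor (0.33 ± 0.07, adjusted p = 0.041). With any 1 set left out neither passed (adjusted p 0.092 to 0.32 for Gnl3 and 0.057 to 0.33 for Tsr1), nor did they with the replicate block (0.12 and 0.17). The list's median was 0.08 in Dil minus WT, 0.03 in Hyp minus WT and 0.03 in Dil minus Hyp, and 0 passed in the last 2 comparisons. At an unadjusted p below 0.05 there were 8, 2 and 5 of 42 genes in these comparisons, against 16.2%, 4.41% and 9.64% of all features. Of 47 genes with a mitochondrial ribosomal protein symbol, 2 fell in Dil minus WT, against 2.15% of all features called in either direction. They were Mrps35 (-0.51 ± 0.09, adjusted p = 0.018) and Mrps36 (-0.47 ± 0.09, adjusted p = 0.034). In that comparison 37 of 47 lay below 0, with a median of -0.15. The list was taken by symbol alone, so a gene in it need not code for a protein of that ribosome. Mrps35 did not pass without set 3 (adjusted p = 0.24) or set 4 (0.19), and Mrps36 did not pass without set 2 (0.080), set 3 (0.30) or set 4 (0.24), and neither passed with the replicate block (0.11 and 0.13). At an unadjusted p below 0.05 there were 19, 1 and 11 of 47 in Dil minus WT, Hyp minus WT and Dil minus Hyp. The shares of all features were 16.2%, 4.41% and 9.64%. Of 13 mTOR and S6 kinase genes 0 passed, with 2, 1 and 4 at an unadjusted p below 0.05 in those comparisons, again against 16.2%, 4.41% and 9.64% of all features. Eif4ebp1, the translation repressor that mTOR phosphorylates, had 0.40 in Dil minus WT and 0.49 in Dil minus Hyp (adjusted p = 0.12 and 0.15).

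Genes with and without a pyrimidine tract at the annotated start had medians near each other. In Dil minus WT the 13 genes with a tract had a median of -0.05 and the 44 without had -0.002, and in Dil minus Hyp the medians were -0.03 and -0.03. On Dil2 over Hyp2 they were -0.50 with a tract and -0.39 without, and on Dil4 over Hyp4 they were 0.21 and 0.32. Of the genes printed above with a tract, Rps27, Rpl38, Rps6 and Rplp2 lay at -0.85, -0.58, -0.57 and 0.03 on Dil2 over Hyp2. Rpl4 and Rpl10, printed without a tract, lay at -0.14 and -0.15. These 6 do not stand for the rest. Rpl39 and Rps7, without a tract, were the lowest there at -1.02 and -0.87. Rpl15 and Rps10, with tracts of 13 and 10 bases, lay at -0.21 and -0.09.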

How the data were processed

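RNA of 12 mice was compared on 11 two-colour cDNA arrays; 25 µg of total RNA per mouse was labelled with Cy3 or Cy5 by oligo(dT)-primed reverse transcription, per the labels' protocols. The authors deposited 1 log ratio per spot, taken here as log2 of Cy5 over Cy3. The labels give neither its base and direction nor the background correction and normalization. Spot brightness is unknown, so the number of arrays limits precision. Each array had values at 17207 of 17664 spots.

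In the column of Hyp1 and WT1, 40 of 46 groups of 12 positions lay 8 blocks away from their place; in 24 of 24 blocks the match with the other set 1 arrays was best there (r 0.50 to 0.74, at most 0.22 elsewhere). They were moved back, and 3840 spots lost their value there. Spots were named by the platform annotation, the 736 control spots left out, and spots of a gene averaged. Features needed values on 9 arrays. Each was fitted by generalised least squares with terms for Dil minus WT, Hyp minus WT and dye, and mice as random effects (shared variance ratio 0.303), moderated by limma 3.58.1 in R 4.3.3, with Benjamini-Hochberg adjustment over 12097 features and a threshold of 0.05. The fit was tested on simulated data in which mouse effects and noise were drawn for each feature independently. Shifts shared by many genes on an array were not part of that simulation. The replicates are mice, and p-values measure the spread between them and between arrays.

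Set values are least squares within a set after removing each gene's dye term. Each number marks which mice were hybridised together. Whether same-numbered mice share a litter or a day is not given, and ratios within sets cannot show whether they deviate together.

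Members and lists were chosen with earlier results of these data known. Genes named singly are those that pass, the 5 highest and 5 lowest per comparison, genes with a stated role, the 3 with the widest set range per comparison and genes on 4 or more spots. Rpl30, Rps10 and others given with a count or range, and Gnl3, Tsr1, Mrps35, Mrps36 and Pdgfra, were named after their values were seen. Alternatives covered the displaced column, dye term, scaling, centring, filter, spot summary, independence, replicate block, direct arrays and each set left out. Atrial markers had 0 measured genes.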

Additional observations from a re-analysis of the deposited data

Results flagged for a closer look

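For 132 values (the medians of the 68 genes and of either subunit, and each gene named singly, in 3 comparisons) the 4 sets were examined for a set far from the other 3, and 12 were found. Such a check marks about 1 value in 20 by chance, and values of genes on the same arrays are not independent. Of the 12, 10 had set 2 as the set apart, and 9 were in Dil minus Hyp.

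In Dil minus Hyp, the median of the 68 genes was -0.44 in set 2 and 0.04 to 0.13 in the other sets, and the median of the large subunit genes was -0.47 in set 2. Among single genes, set 2 stood apart at -0.21 for Rpl15, -0.63 for Rpl17, -0.60 for Rpl31, -0.69 for Rpl38, -0.55 for Rpl7, -0.70 for Rps21 and -0.89 for Rps29. All of these rest mainly on Dil2 over Hyp2. The ranges of the other 3 sets were narrow for some of them, 0.05 to 0.07 for Rpl7 and -0.03 to 0.03 for Rps29. In Dil minus WT, Rps10 stood apart at -0.12 in set 2, and Rpl15 at 0.37 in set 4 against -0.02 to 0.02 in the others. In Hyp minus WT, Rpl9 was at -0.56 in set 1 and between -0.08 and -0.01 in the others; it had no value on the realigned array, so its set 1 value comes from the other 2 arrays.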

How the results depend on the processing

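The count of ribosomal protein genes that passed was 0 in each comparison under all 16 alternatives, with exceptions in Dil minus WT only. There, with arrays taken as independent, 1 gene passed (Rpl3, 0.64, adjusted p = 0.0499), against 377 of all 12097 features. With every spot a feature of its own, 2 of 186 spots passed, against 302 of all 16471 spots. Over the alternatives the adjusted p of Rpl3 in Dil minus WT ran from 0.0499 to 0.42. The median of the 68 genes moved by less than the standard deviation over sets under every alternative, but changed sign. It ran from -0.095 (without set 3) to 0.015 (without set 2) in Dil minus WT, from -0.077 (without set 2) to 0.079 (without set 1) in Hyp minus WT and from -0.078 (without set 4) to 0.085 (without set 2) in Dil minus Hyp. Features that passed in Dil minus WT numbered 159 with the array of Hyp1 and WT1 left out, 99 with arrays scaled to a common spread, 7 with direct arrays only and 0 to 121 with 1 set left out (0 without set 3, 12 without set 4, 80 without set 2). In Dil minus Hyp they numbered 7 with that array left out, 41 with its column as deposited, 43 with no dye term, 52 with arrays taken as independent, 0 with direct arrays only and 0 to 15 with 1 set left out. In the paired fit with the replicate block, 6 features passed in Dil minus WT and 0 in Dil minus Hyp and Hyp minus WT, and 0 of the 68 genes passed in any. The causes were not tested. Of 1837 values of 41 single ribosomal protein genes under alternatives, 6 moved by more than the spread between sets; single genes were not refitted with every spot apart. Of 15 alternatives Gnl3 passed in 6, Mrps35 in 10 and Mrps36 in 9, and Tsr1 passed in 7 of 14. Requiring a value on all arrays left 64 of the 68 genes.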

Other observations

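Of the 7 spots of Rpsa, 1 stood apart on Dil3 over WT3, at -2.06, while the other 6 lay between 0.23 and 0.76. On Dil3 over Hyp3 the same spot was at 0.22 and on Hyp3 over WT3 at -0.01, so the array value is not matched by the 2 other arrays of the set. On Dil4 over Hyp4 it was at -0.19, and the other 6 lay between 0.38 and 0.90. The fitted values of the 7 spots in Dil minus WT ran from -0.27 to 0.30.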
